A study of Mus musculus with 2 samples.

Results

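Peaks of open chromatin that lie in repeat sequence were examined in naive resting CD8 T cells of the mouse. A repeat peak was any peak of replicate 2's shorter peak list in which 80% or more of the bases are written in lower case, that is, marked as repeat or low-complexity sequence, in the mm10 reference genome. Of the 38223 peaks in that list, 440 met the rule (1.15%, Wilson 95% interval 1.05 to 1.26%). Counted by bases, 8.34% of the sequence of all peaks in the list carried the mark, against 36.4% of the whole genome. The comparison set was the 20764 peaks with no marked base, called unmasked peaks here. Members had a median of 92.3% masked bases, and 147 of the 440 were masked from end to end.

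The assay was DNase-seq, which sequences the ends of DNA that the nuclease DNase I cut in nuclei, mostly where chromatin is open. The 2 libraries, labelled biological replicates 2 and 3, came from primary cells of B6CASTF1/J males aged 2 months, a cross of a C57BL/6 with a CAST parent, with no treatment named. Their donor label is the same and their biosample labels differ. Separate animals are therefore not certain, and any spread between the libraries may be technical. Of 10 marker genes of naive CD8 T cells, 10 were the nearest gene of a replicate 2 peak and 5 of a replicate 3 peak, against 3 and 2 of 7 markers of CD4 T cells, B cells and myeloid cells. With peaks at promoters alone, the counts were 7 and 1 of the 10, against 1 and 1 of the 7. At promoters, replicate 3 therefore did not set the 2 groups of markers apart. Replicate 3's shorter list held 17061 peaks, of which 72 (0.422%) met the same rule, and 68 of those 72 overlapped a peak of replicate 2's shorter list. The signal of a peak is the value the authors deposited for it. Its scaling is not stated, and values below 2 are whole multiples of a step that is 6.05 times as large in replicate 3 as in replicate 2.

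Repeat sequence in mammals comes mostly from transposable elements, which copied themselves through the genome, and from tandem arrays such as satellites. Most copies are packed in closed chromatin, yet some hold sequences that proteins bind, and old copies can serve as enhancers, insulators or promoters. Short interspersed elements of the rodent B2 kind are known to have carried binding sequences of CTCF, the protein that anchors chromatin loops, to many places in rodent genomes. Short reads that match several copies cannot be placed with certainty, and the authors' treatment of such reads was not given in the sources used here. No repeat annotation was used, so the groups below are named by number and not by element.

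When members were compared with each other by sequence, 192 of the 440 (43.6%) fell into a pair of large families, family 1 with 102 members and family 2 with 90. The following sequences are shown because they carry the stretch that footprints cover in both families. A footprint is a short interval inside open chromatin that was spared from cutting, as called by the authors. All sequences are from the + strand of mm10, and each is labelled with its nearest protein-coding gene. In the first pair, the best-aligned peak of each family (Sfi1 for family 1 and Slc25a14 for family 2, both picked after the families were seen), capitals mark bases that lay in a replicate 2 footprint in 50% or more of the aligned family members, where 20 or more aligned, in runs of 6 bases or more.
Sfi1 chr11:3172041-3172280: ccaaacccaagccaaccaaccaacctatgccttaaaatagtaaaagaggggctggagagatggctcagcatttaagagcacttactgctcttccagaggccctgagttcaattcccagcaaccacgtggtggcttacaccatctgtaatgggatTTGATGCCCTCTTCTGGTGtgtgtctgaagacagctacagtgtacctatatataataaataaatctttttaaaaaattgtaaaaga
Slc25a14 chrX:48644261-48644420: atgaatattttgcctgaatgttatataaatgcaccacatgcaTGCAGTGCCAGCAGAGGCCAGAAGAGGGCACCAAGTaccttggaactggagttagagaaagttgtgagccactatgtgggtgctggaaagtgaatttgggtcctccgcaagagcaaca
In the next 4, capitals mark the peak's own replicate 2 footprints. The C3, Gtf2ird2 and Rd3 peaks belong to family 2 and the Tmem50a peak to family 1.
C3 chr17:57219261-57219440: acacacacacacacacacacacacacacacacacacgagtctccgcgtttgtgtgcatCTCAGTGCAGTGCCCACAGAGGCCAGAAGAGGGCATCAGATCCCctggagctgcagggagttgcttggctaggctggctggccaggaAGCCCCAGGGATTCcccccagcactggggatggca
Gtf2ird2 chr5:134187421-134187620: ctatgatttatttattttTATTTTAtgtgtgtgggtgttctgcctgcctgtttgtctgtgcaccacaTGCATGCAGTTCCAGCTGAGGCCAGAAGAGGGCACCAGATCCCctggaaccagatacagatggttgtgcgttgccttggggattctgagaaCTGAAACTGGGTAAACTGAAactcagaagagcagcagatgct
Rd3 chr1:191995581-191995780: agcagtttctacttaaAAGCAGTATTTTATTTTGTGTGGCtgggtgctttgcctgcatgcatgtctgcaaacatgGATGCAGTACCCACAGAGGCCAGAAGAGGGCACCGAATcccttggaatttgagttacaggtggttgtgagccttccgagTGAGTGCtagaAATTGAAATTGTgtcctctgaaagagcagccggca
Tmem50a chr4:134913561-134913720: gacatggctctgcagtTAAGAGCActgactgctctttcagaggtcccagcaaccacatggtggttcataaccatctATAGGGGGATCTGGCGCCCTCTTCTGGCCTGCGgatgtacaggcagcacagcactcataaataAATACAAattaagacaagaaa
Each of these 6 peaks holds, inside its capitals, the word GAAGAGGGC (the peaks of family 2) or its reverse complement GCCCTCTTC (those of family 1). The next 2 peaks were placed in no large family and hold the same word.
Slc25a25 chr2:32487221-32487420: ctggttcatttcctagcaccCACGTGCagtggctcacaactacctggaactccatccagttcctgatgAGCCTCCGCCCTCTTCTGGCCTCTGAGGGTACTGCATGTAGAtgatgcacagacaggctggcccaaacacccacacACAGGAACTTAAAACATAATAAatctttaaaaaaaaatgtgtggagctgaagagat
Fbln1 chr15:85258141-85258320: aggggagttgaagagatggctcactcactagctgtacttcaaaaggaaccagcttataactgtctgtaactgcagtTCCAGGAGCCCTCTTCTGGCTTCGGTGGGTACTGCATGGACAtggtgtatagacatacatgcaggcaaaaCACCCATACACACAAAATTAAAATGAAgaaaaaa
The last sequence shows another kind of member, the strongest satellite peak of chromosome 9.
Gm10717 chr9:3024361-3024620: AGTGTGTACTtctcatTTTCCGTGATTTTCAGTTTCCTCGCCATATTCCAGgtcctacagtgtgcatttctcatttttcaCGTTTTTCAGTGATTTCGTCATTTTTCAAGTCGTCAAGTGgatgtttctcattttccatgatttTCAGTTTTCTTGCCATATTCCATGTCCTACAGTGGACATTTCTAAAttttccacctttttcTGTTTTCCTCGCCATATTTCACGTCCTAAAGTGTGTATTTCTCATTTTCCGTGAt

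Within each family the footprints fell on the same stretch of sequence. In family 2, 75 of 90 members aligned to the Slc25a14 peak, with a median identity of 77.7%. At base 67 of that peak, 70 of the 74 members aligned there lay in a footprint (94.6%, Wilson 95% interval 86.9 to 97.9%), while the median over the 101 bases with 20 or more aligned members was 26.7%. A run of bases at 50% or above went from base 43 to base 78. The share rose again at the edge of the aligned stretch, to 52.4% (11 of 21) at base 130. In family 1, 90 of 102 members aligned to the Sfi1 peak at a median identity of 82.8%. There the highest share was 61.8% (34 of 55, interval 48.6 to 73.5%) at base 171, against a median of 12.5%, and the run went from base 155 to base 173. The aligned bases in the runs were no less alike than elsewhere: 80.3% matched the reference peak inside the run and 78.3% outside it in family 2, and 85.2% and 84.9% in family 1. Replicate 3, with fewer footprints, had one over at most 7 of 74 members at any base of family 2, at base 59. In family 1 the most was 2 of 81 at base 138, outside the run. Inside the run it was 1 of 79 at base 155, and none from base 163 to the run's end. A replicate 3 footprint anywhere in the peak was counted in 6 members of family 1 and 16 of family 2. A preference of DNase I for certain letters was not tested.

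**Figure D1:**
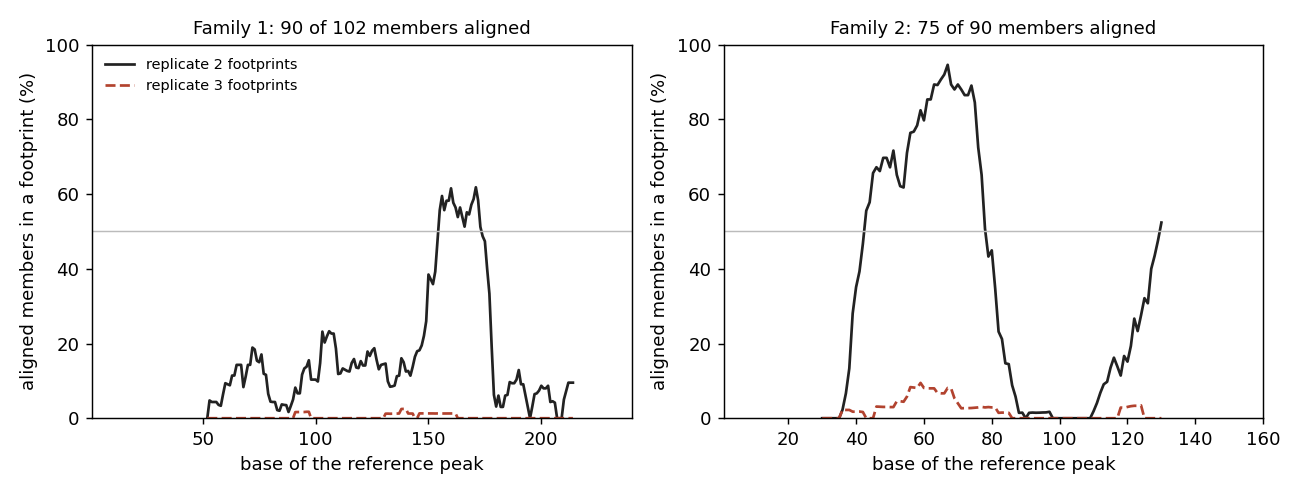
Share of aligned family members that lay in a footprint (%, y axis) at each base of the reference peak (x axis) for family 1 (left) and family 2 (right), drawn where 20 or more members aligned. The black line is replicate 2, the dashed red line replicate 3, and the grey line marks 50%. Replicate 2 peaks at 61.8% in family 1 and at 94.6% in family 2, where a second rise at the right edge reaches 52.4%.

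The word GAAGAGGGC, searched on both strands, was present in 150 of the 440 members (34.1%, Wilson 95% interval 29.8 to 38.6%) and in 111 of the 20764 unmasked peaks (0.535%, 0.444 to 0.643%). All peaks of the list held it in 2.59%. It was chosen after the footprint profiles were seen, so its presence, its footprints and its place in the members are descriptions. Family 1 held it in 61 of 102 members, family 2 in 60 of 90, and the 248 others in 29 (11.7%). The 16 peaks of the chromosome 9 satellite block held none. In members, 85 of 153 matches lay wholly inside a replicate 2 footprint (55.6%, 47.6 to 63.2%), where 19.5% of all member bases lay in one. The families differed, with 25 of 61 matches (41.0%, 29.5 to 53.5%) in family 1 and 45 of 61 (73.8%, 61.6 to 83.2%) in family 2. Outside families 1 and 2 the count was 15 of 31, and in multicopy members 3 of 16. The share of matches in a footprint was not particular to members: it was 62.1% in peaks with 20 to 50% masked bases, 66.2% with 50 to 80%, and 51.4% (514 of 1000) over all peaks. In unmasked peaks the same word lay wholly in a footprint in 14 of 116 matches (12.1%, 7.33 to 19.2%), where 18.1% of all bases did. A share of words needs all 9 bases in a footprint and a share of bases counts each one, so the pair is not a like comparison. Matches also sat near the middle of the peak. In distal members, those without a protein-coding start within 1 kb, 129 of 144 (89.6%) were within 30 bp of the centre, a window that took up 45.8% of the length of these peaks. In unmasked distal peaks 14 of 50 (28.0%) were, where the window took up 30.7%.

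Of the 150 members with the word, 135 were single-copy, meaning that the median of their 31-base words occurs once in the genome. Their median signal was 0.809 in replicate 2, against 0.686 in the 290 members without it. A footprint was present in 95.3% of them (143 of 150, 90.7 to 97.7%) and in 80.3% of the rest (233 of 290, 75.4 to 84.5%). Replicate 3's shorter list held 22 of the 150 (14.7%, 9.89 to 21.2%) and 37 of the 290 (12.8%, 9.40 to 17.1%), shares whose intervals overlap. Among replicate 3's own 72 repeat peaks the word was present in 26 (36.1%, 26 to 47.6%), against 0.566% of its 11137 unmasked peaks, and none of those 26 matches lay in a replicate 3 footprint. Replicate 2's footprints covered 23 of the same 26.

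**Figure D2:**
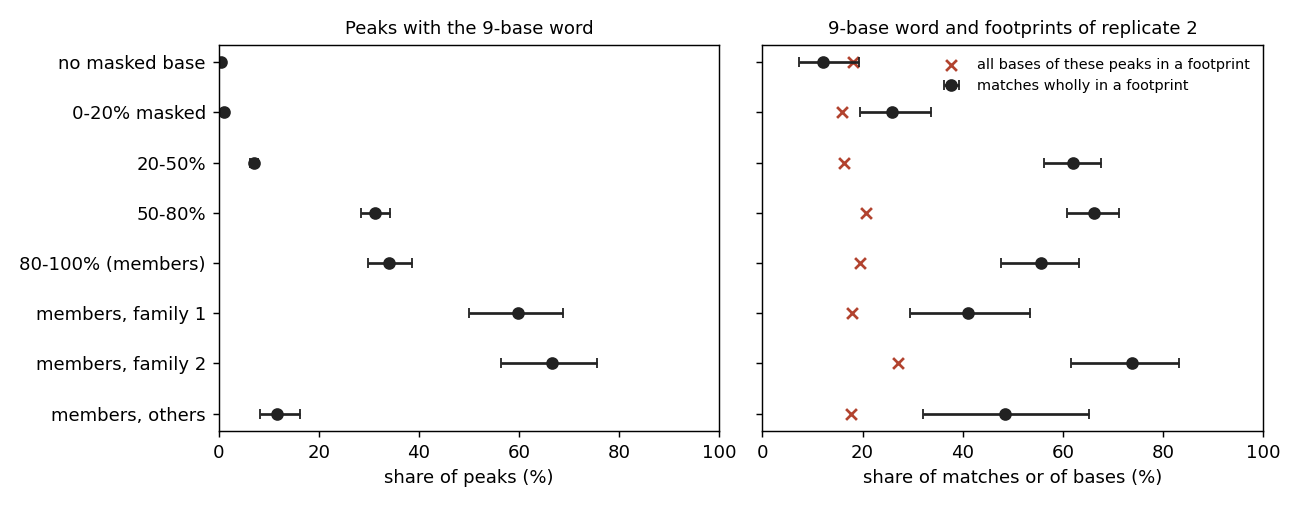
Left, share of replicate 2 peaks that hold the 9-base word (%, x axis) in each class of masked bases and in the families of members. Right, share of the matches that lay wholly in a footprint (black, %) beside the share of all bases of those peaks that did (red crosses). Bars are Wilson 95% intervals for counting error. Members hold the word in 34.1% and unmasked peaks in 0.535%.

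Most copies of the word in the genome lay in no peak. Of 67379 occurrences in fully masked sequence, 766 (1.14%, Wilson 95% interval 1.06 to 1.22%) lay in a replicate 2 peak of any class. In unmasked sequence 220 of 17347 (1.27%, 1.11 to 1.45%) did. These 2 shares have unlike backgrounds, because masked bases made up 8.34% of the bases of all peaks and 36.4% of the genome. The stretch of the family 1 reference peak that 20 or more members shared, 163 bases, had 78477 copies at 80% or more identity over 80% or more of its length, and 56 of them (0.0714%) overlapped a peak. The family 2 stretch, 101 bases, had 509 such copies, and 16 (3.14%, 1.94 to 5.04%) overlapped a peak. Copies less alike than this were not counted, and only 22 of the family 1 copies and 6 of the family 2 copies fell on members.

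By placement, members lay away from genes' starts. A promoter window, 1 kb either side of a protein-coding start, was overlapped by 40 of 440 members (9.09%) and 48.2% of unmasked peaks, a difference of -39.1 percentage points (Newcombe 95% interval -41.6 to -36.0). Introns held 172 members (39.1%), intergenic sequence 223 (50.7%) and exons 5, against 21.7%, 24.6% and 5.45% of unmasked peaks. No start lay within 50 kb of 103 members (23.4%) and 12.2% of unmasked peaks, a difference of 11.2 points (7.45 to 15.4). Among distal peaks alone that difference was 2.15 points (-1.97 to 6.73), with 25.8% of 400 members and 23.6% of 10752 unmasked peaks. The nearest neighbour of a distal member was a median of 6.04 kb away, and 60.3% had another peak within 10 kb, against 6.57 kb and 59.3% for unmasked distal peaks.

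The signal of members was low and ran over a wide range. In replicate 2 the lowest member had 0.0970, the median 0.720 and the highest 34.2, while unmasked peaks had a median of 1.29. The median of the unmasked peaks was exceeded by 78 members (17.7%), a difference of -32.3 points (-35.6 to -28.4). Among distal peaks 27.0% of members exceeded the median of the unmasked ones, a difference of -22.9 points (-27.1 to -18.3). Replicate 3's own 72 repeat peaks had a median of 1.76 and its unmasked peaks 3.07, so members were the weaker set in both libraries. Members were also shorter, with a median width of 141 bp against 200 bp, and had 49.3% G or C bases against 57.8%. Among distal peaks these gaps were smaller, with 143 bp against 180 bp and 49.6% against 53.0%. Over the classes of masked share the median signal was 1.29 with no masked base, 1.42 up to 20%, 1.00 up to 50%, 0.873 up to 80% and 0.720 in the members. At the threshold, 98 peaks with 75 to 80% masked bases had a median signal of 0.836 and 3.06% in promoter windows, and 105 with 80 to 85% had 0.783 and 9.52%.

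**Figure D3:**
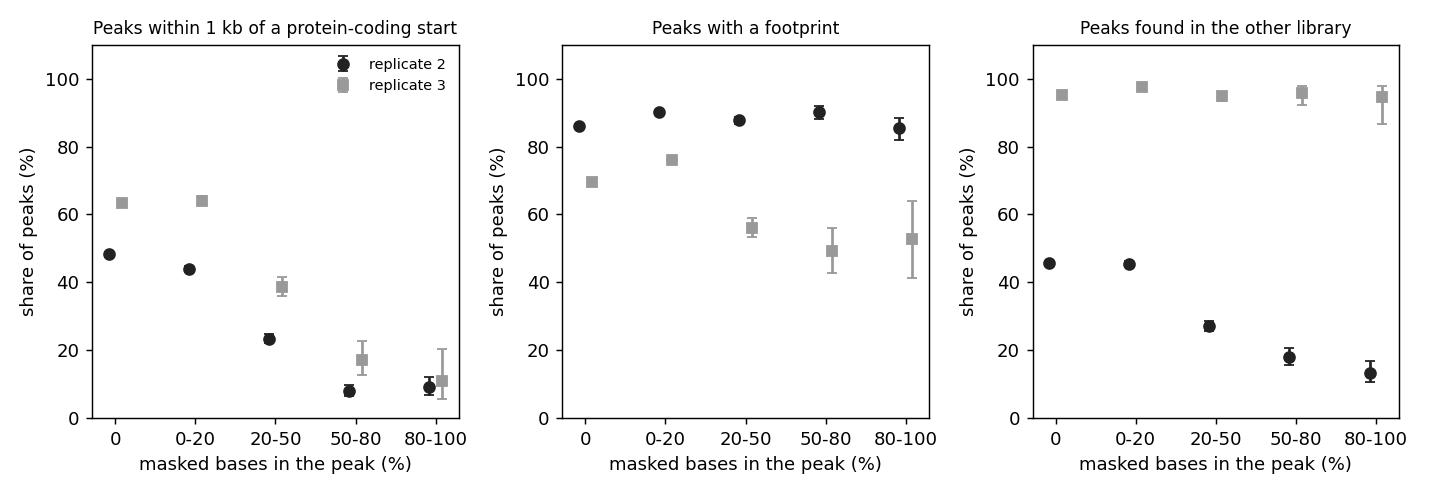
Share of peaks (%, y axis) within 1 kb of a protein-coding start (left), with a footprint of their own library (middle) and found in the other library's shorter list (right), by masked bases in the peak (%, x axis). Circles are replicate 2, squares replicate 3, and bars are Wilson 95% intervals for counting error. In replicate 2 the promoter share goes from 48.2% with no masked base to 9.09% in the members, and the share found in replicate 3 from 45.6% to 13.4%.

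Replicate 3's shorter list held 59 of the 440 members (13.4%, Wilson 95% interval 10.5 to 16.9%), against 42.5% of all replicate 2 peaks and 45.6% of unmasked ones. The difference from unmasked peaks was -32.2 points (-35.1 to -28.6). At equal signal, with the unmasked peaks weighted to the members' spread over 10 equal classes of the signal of all peaks, it was -4.75 points (-7.43 to -2.07). Among distal peaks alone, 13.25% of members and 31.25% of unmasked peaks were in that list, a difference of -18.0 points (-21.1 to -14.2). The distal difference at equal signal was -3.32 points (-6.17 to -0.474). Replicate 3's longer list held 143 members (32.5%), against 58.7% of all peaks and 60.0% of unmasked ones, and at equal signal that difference was -2.39 points, with an interval from -6.29 to 1.51 that includes 0. The authors' deposited false discovery rates for replicate 3 listed a position in 150 members (34.1%) and in 63.1% of unmasked peaks.

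Strong members were mostly found again and weak ones mostly were not. Of 119 members in the lowest class of signal, up to 0.552, replicate 3 held 1. It held 16 of 29 (55.2%) in class 7, from 1.67 to 2.20, against 62.8% of unmasked peaks there, and 9 of 9 in classes 9 and 10. Among these 9 only the peak nearest to Slc25a25 was single-copy, and most lay in the chromosome 9 satellite block. Over the 59 members in both shorter lists the median signal was 1.84 in replicate 2 and 1.94 in replicate 3, and the order of the signals was alike (Spearman's rho 0.90 across these sites, which share their libraries; 0.86 over the 52 outside the satellite block). Unmasked peaks in both lists had a rho of 0.93 over 9461 sites.

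**Figure D4:**
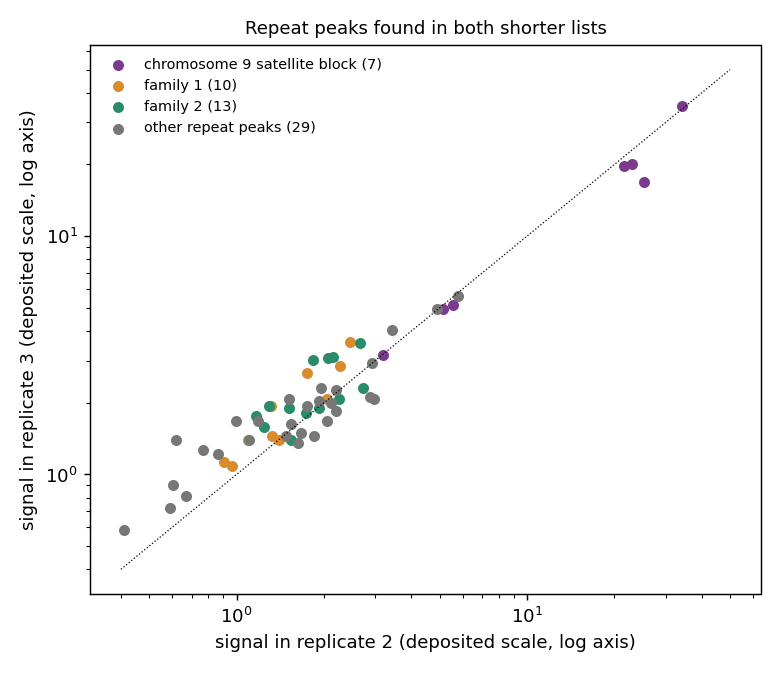
Signal in replicate 2 (x axis) and replicate 3 (y axis), deposited scale on log axes, for the 59 members found in both shorter lists, coloured by family, with equality as the dotted line. The 7 satellite peaks reach 34.2 and 35.3 in the 2 libraries, and no other member passes 5.80 in replicate 2.

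Over all placements, the share of members with a footprint differed from that of unmasked peaks by less than the counting error. A replicate 2 footprint overlapped 376 of the 440 (85.5%, 81.9 to 88.4%), against 87.6% of all peaks and 86.0% of unmasked ones, a difference of -0.507 points (-4.14 to 2.52). The members had a median of 2 footprints, against 3 in unmasked peaks, and a median of 18.3% of their bases in one, against 16.6%. At equal signal the members' share was 10.1 points higher (6.81 to 13.4), with 75.4% in the weighted unmasked peaks. Among distal peaks alone the difference without this weighting was -3.84 points (-7.53 to -0.839), with 87.0% of members and 90.8% of unmasked peaks. The distal difference at equal signal was 1.20 points (-2.16 to 4.56), with 85.8% of the weighted unmasked peaks. In signal classes 2 to 4, 191 of 204 members had a footprint. In unmasked peaks the share was 71.8% in class 2, 77.4% in class 3 and 82.8% in class 4. These classes do not set distal peaks apart. Replicate 3's footprint list overlapped 45 members (10.2%) and 37.4% of unmasked peaks, and in its own peak list 52.8% of the 72 repeat peaks had a footprint against 69.5% of unmasked ones.

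**Figure D5:**
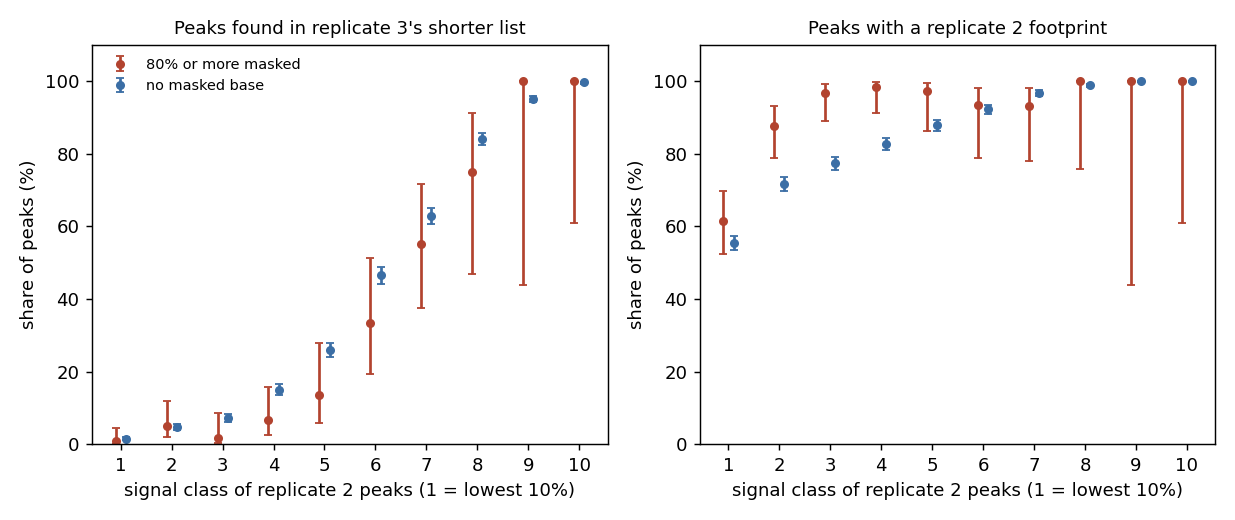
Share of replicate 2 peaks (%, y axis) found in replicate 3's shorter list (left) and with a replicate 2 footprint (right) by class of signal (x axis; the peaks of replicate 2 cut into 10 equal classes, 1 the lowest). Red points are members, blue points unmasked peaks, and bars are Wilson 95% intervals for counting error. On the left both sets climb with the signal, members from 1 of 119 in class 1 to 9 of 9 in classes 9 and 10. On the right members lie above unmasked peaks, with intervals apart, in classes 2 to 4.

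How unique a member's sequence was divided the set. The median 31-base word occurred once in the genome in 296 members and 2 or more times in 140 (32% of the 437 long enough to hold such a word, against 1.06% of unmasked peaks), a difference of 31 points (26.8 to 35.5). In 33 members it occurred 100 or more times, which no unmasked peak did. The multicopy members had a footprint in 78.6% (110 of 140, 71.1 to 84.6%) and the single-copy ones in 89.2% (264 of 296, 85.1 to 92.2%). Replicate 3's shorter list held 24 of the 140 (17.1%, 11.8 to 24.2%) and 35 of the 296 (11.8%, 8.63 to 16.0%). Which of the copies was open cannot be told apart for the multicopy members.

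The strongest members lay in tandemly repeated sequence, called the satellite block here. This block of 29.4 kb at the start of the assembled chromosome 9, chr9:3000571-3029940, held 16 peaks in replicate 2, all of them members, and 7 in replicate 3, each of which overlapped a member. Their signals in replicate 2 went from 0.582 through a median of 2.11 to 34.2. All 16 were multicopy, with a median 31-base word that occurred 8 to 146.5 times in the genome. Which of the copies gave these signals and footprints cannot be told. The sequence repeats with a period of 234 bp, at which 69.7% of the letters match against 31.4% at the median over periods of 20 to 1000 bp, and the peaks had a median of 35.4% G or C bases. A satellite rich in A and T is known to surround the centromeres of mouse chromosomes. The highest peak, printed above and nearest to Gm10717, reached 34.2 in replicate 2 and 35.3 in replicate 3. The peak nearest to Gm10722, chr9:3002021-3002220, had 25.3 and 16.8, that of Gm10718 at chr9:3024021-3024260 had 23.0 and 20.1, and that of Gm11168 had 21.5 and 19.7. These 4 stood above every other member, whose signals went up to 5.80 in replicate 2. The genes named here are predicted gene models. Of the 40 members in promoter windows, 14 (35.0%) lay in the block. Without the block the promoter share was 6.13%.

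Among single-copy members that were also in replicate 3's shorter list, the strongest peak lay 35.8 kb from Slc25a25, a mitochondrial carrier of ATP and phosphate. This peak had 4.89 in replicate 2 and 4.92 in replicate 3. It was in intergenic sequence and had 3 footprints. The peak in an intron of C3, the central complement protein, had 2.73 and 2.30, and that in an intron of Gtf2ird2 had 2.66 and 3.57. The intronic peak of Tmem50a, 1.30 kb from its start, had 2.46 and 3.61, and the peak 19.3 kb from Eif1, a translation initiation factor, had 2.27 and 2.85. Those near Ano6 (2.25 and 2.08), Fbln1 (2.20 and 2.26), Zfp873 (2.20 and 1.85) and Rd3 (2.14 and 3.12) followed among members in both shorter lists. The peak 467 kb from Gm11232 had 2.96 and 2.08. In the promoter windows outside chromosome 9 the peak of Clec2i had 1.73 in replicate 2 and 2.03 in the longer list of replicate 3. It belongs to family 1, was multicopy and had no footprint.

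Near genes of T cells the share of members did not differ from that of the whole list beyond counting error. Of the 521 peaks whose nearest gene was among 55 genes of T cell receptor signalling, CD8 lineage, and naive state and homing, 4 were members (0.768%, 0.299 to 1.96%), an interval that includes the 1.15% of the whole list. Lef1, which helps to keep T cells naive, was nearest to 2 of them. S1pr1, the receptor with which lymphocytes leave lymph nodes, had 1 at 0.806, and Prkcq, a kinase of T cell receptor signalling, had 1 in an intron at 0.604, both in neither peak list of replicate 3. The lists of effector, B cell, myeloid and housekeeping genes, nearest to 115, 22, 8 and 63 peaks, had no member, and too few peaks for a share as low as the whole list's to be told from 0. The 440 members had 401 nearest genes.

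Letters known from transcription factors were searched on both strands in the distal peaks, 13 patterns in all, of which a match is a description and not a site. TGTGGT, bound by RUNX factors that set the CD8 lineage, was in 115 of 400 distal members (28.8%, Wilson 95% interval 24.5 to 33.4%), 20.7% of unmasked distal peaks and 23% of all distal peaks, a difference of 8.03 points (3.74 to 12.7). Family 1 held it in 63 of 102, and without that family 19.0% of distal members did. Of the 70 matches in family 1, 19 touched a footprint (27.1%, 18.1 to 38.5%), against 29.5% of matches in unmasked distal peaks. GAAANTGAA, bound by interferon regulatory factors, was in 3.75% of distal members, 1.27% of unmasked distal peaks and 1.84% of all distal peaks, a difference of 2.48 points (0.993 to 4.83). Without family 1 it was in 9 of 310 distal members (2.90%). Replicate 3's own distal repeat peaks held it in 1 of 64, against 0.882% of its unmasked distal peaks. The full CTCF pattern was in 5% of distal members, 17.3% of unmasked distal peaks and 16% of all distal peaks, a difference of -12.3 points (-14.2 to -9.66). Of the 150 members with GAAGAGGGC, 1 matched that pattern. A match needed every position of the pattern, so near variants were not counted. Whether the word is itself such a variant was not examined, so this count does not tell how near the word is to the pattern. Whether CTCF binds the word was not tested. GGGCGG, of the KLF and SP factors, was in 6.50% against 12.4%, and 12.2% of all distal peaks. CCGGAAG, of the ETS factors, was in 1.00% against 3.57%, and 3.36% of all distal peaks.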

How the data were processed

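Per the labels, DNase-seq libraries of 1 group were deposited on mm10, each with 2 peak lists, a footprint list and a list of false discovery rates, called per library. The signal (column 7) is as the authors deposited it, with no scaling stated. The q-value list holds the authors' deposited false discovery rates up to 0.05. Callers and aligner were not given in the sources used here.

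Masked bases are the lower-case letters of the GRCm38 reference; the masking program is not given. Genes came from the GENCODE M21 basic annotation and tRNA genes from RefSeq. Peaks overlapped when they shared 1 bp. Families joined members by blastn 2.17.0 alignments of 80% identity over 80% of the shorter peak (E-value up to 1e-05, single linkage, so distant members may not align); 10 members with 50% or more bases in perfect tandem repeats were left out. Shares carry Wilson and differences Newcombe 95% intervals, counting error only, tested on simulated data; no test between conditions was possible. Named members were the 10 strongest, the 10 strongest single-copy ones in both libraries, the 10 strongest in promoter windows, those nearest to T cell genes, and the strongest of 5 families. Python 3.11.15 was used. The members, lists and comparisons were chosen with earlier results of these data known. Some members named by this rule are not reported here.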

Additional observations from a re-analysis of the deposited data

How the results depend on the processing

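Each of 9 results was recomputed under the alternatives, 91 values in all, of which 74 kept their direction and left their 95% interval on the same side of 0, or across it, as before. The share of repeat peaks was 3.81% with 50% or more masked bases, 0.385% with 100%, 2.03% in the longer list, 0.422% without replicate 2 (replicate 3's list) and 0.381% among as many of the strongest peaks as replicate 3 has. The footprint share difference turned to 2.84 points at 50% masked bases, 2.98 in single-copy peaks and 0.723 on the autosomes (the latter 2 with intervals that include 0), and its interval left 0 out at -18.5 in the longer list, -16.7 without replicate 2 and -3.84 in distal peaks. At equal signal it was 9.64 without replicate 2, 1.20 in distal peaks and -0.00253 among the strongest peaks, where the interval included 0 each time, and 2.53 in the longer list. The replicate 3 presence difference at equal signal was -2.51 at 100% masked bases and -2.39 with the longer list of replicate 3, both with intervals that include 0. The remote share difference was 2.15 in distal peaks, with an interval that includes 0, and ran up to 23.1 beyond 10 kb, with 5.48 in single-copy peaks, 5.93 at 50% masked bases and 20.8 in the longer list. The cause of these moves was not tested. The satellite-block, distal-peak and equal-width alternatives, like the word of 9 letters, were chosen after seeing the data; equal width as well as signal gave 10.1 and -3.71 points. The promoter difference ran from -52.2 to -33.2, the signal difference from -36.1 to -22.9 and the multicopy difference from 12.3 to 61.5. No paired analysis was possible because there is 1 group. Read depth was not given in the sources used here.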

Other observations

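Chromosome Y held 38 peaks in replicate 2, of which 11 were members (28.9%, Wilson 95% interval 17.0 to 44.8%), against 2.38% on chromosome X and 0.293 to 1.52% on the autosomes. Their signals were at most 0.776, and 2 of the 11 were in replicate 3's shorter list, those nearest to Gm21693 (0.604 in replicate 2 and 0.903 in replicate 3) and Gm21294 (0.589 and 0.723). Small RNA genes overlapped 4 members: an rRNA gene each in the peaks nearest to Rhou (signal 0.239) and Gas8 (0.216), a small nuclear RNA nearest to Tmem259 (1.02) and a predicted miRNA nearest to Slc25a14 (0.373). No tRNA gene overlapped a member, where a count of 0 allows 3 counts of 440, a share of up to 0.682%, while 0.352% of unmasked peaks overlapped one. Perfect tandem repeats of units of 1 to 6 bp made up 50% or more of 10 members and of no unmasked peak. These included the peak nearest to Gnai2 (0.888), whose median 31-base word occurred 8740 times in the genome, and an intergenic one 381 kb from its nearest gene Tlr4, with 1.63 in replicate 2 and 1.36 in replicate 3.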
